A study of Mus musculus with 14 samples.

Results

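Bone marrow cells divide in culture as they grow into macrophages, and the genes described here are those that a dividing cell uses to enter and complete mitosis. They are 49 genes of the G2 phase and of mitosis, chosen by name and matched by gene identifier to the count files. They are 49 of the 21761 genes with exon counts, and each of them also has a row of intron counts. By function they fall into 9 groups: CDK1 with its cyclins and regulators, partners of the anaphase-promoting complex, the spindle assembly checkpoint, mitotic kinases, the chromosomal passenger complex, the kinetochore, spindle motors, the central spindle, and chromosome structure.

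The knockdown group held 2 libraries from macrophages with a retroviral short hairpin RNA against Wdr82, 1 with hairpin sh1137 and 1 with hairpin sh830. The control group held 2 libraries, scrambled 1 and scrambled 2, from macrophages with a scrambled hairpin. All 4 came from primary bone marrow cells of FVB/Hsd mice on day 7 of differentiation in L929-conditioned medium, after retroviral infection and puromycin selection, and were not stimulated. Their total RNA was depleted of ribosomal RNA and made into strand-marked libraries. The labels do not say whether the libraries came from separate mice or cultures, so p-values measure only the spread between these libraries. Each hairpin has 1 library, and a hairpin cannot be told apart from its library. The series lists 14 samples, and those with a Menin hairpin, lipopolysaccharide or 4-thiouridine labelling were not analysed here.

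Entry into mitosis is driven by CDK1 bound to cyclin A or cyclin B, and exit from it by the anaphase-promoting complex, which CDC20 and the ubiquitin-conjugating enzyme UBE2C turn on cyclin B and securin. Between these steps Aurora and Polo-like kinases build the spindle, and the checkpoint kinases hold anaphase back until every kinetochore is attached. Transcription of these genes peaks in G2 and mitosis. Many of their promoters carry a cell cycle genes homology region (CHR), which the DREAM complex binds in resting cells and the B-MYB and MuvB complex with FOXM1 binds in dividing cells, and CCAAT boxes, which NF-Y binds. Macrophages leave the cell cycle as they differentiate. In bulk RNA, fewer dividing cells and less RNA per dividing cell cannot be told apart. Wdr82, the targeted gene, encodes a protein found both in the SET1 histone methyltransferases and in a nuclear PP1 phosphatase complex that acts in transcription termination.

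The promoters of 6 of these genes are shown, taken from the ends of the change: Ube2c, Cdc20, Ccnb2, Ccnb1 and Cenpa were among those that fell most, and Bub3 was the called gene that fell least. None from the middle of the range is shown, nor are Plk1, Nek2, Aurka, Cdc25c and Kif20a, which fell by more than Cenpa. For Cdc25c and Kif20a no RefSeq promoter window was available. Each stretch runs from position -150 to position 30 counted from the gene start of the RefSeq promoter table (GRCm38.p6), 180 bases on the gene's own strand, 5′ to 3′. Capitals mark CHR letters (TTTGAA or TTCGAA, either strand) and CCAAT letters (CCAAT or ATTGG). The stretches are chr2:164769779-164769958 on the plus strand for Ube2c, chr4:118437314-118437493 on the minus strand for Cdc20, chr9:70421525-70421704 on the minus strand for Ccnb2, chr13:100786457-100786636 on the minus strand for Ccnb1, chr5:30666736-30666915 on the plus strand for Cenpa and chr7:131560220-131560399 on the plus strand for Bub3.
Ube2c: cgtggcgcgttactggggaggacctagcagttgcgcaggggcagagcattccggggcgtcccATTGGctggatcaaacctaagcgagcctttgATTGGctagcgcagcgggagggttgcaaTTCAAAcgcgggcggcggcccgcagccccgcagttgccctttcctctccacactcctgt
Cdc20: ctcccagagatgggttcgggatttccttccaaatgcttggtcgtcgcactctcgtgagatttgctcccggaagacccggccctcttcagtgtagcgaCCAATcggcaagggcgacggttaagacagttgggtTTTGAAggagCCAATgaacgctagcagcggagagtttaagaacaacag
Ccnb2: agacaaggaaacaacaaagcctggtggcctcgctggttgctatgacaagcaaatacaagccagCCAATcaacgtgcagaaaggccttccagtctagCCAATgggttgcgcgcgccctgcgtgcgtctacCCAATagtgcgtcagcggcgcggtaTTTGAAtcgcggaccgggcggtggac
Ccnb1: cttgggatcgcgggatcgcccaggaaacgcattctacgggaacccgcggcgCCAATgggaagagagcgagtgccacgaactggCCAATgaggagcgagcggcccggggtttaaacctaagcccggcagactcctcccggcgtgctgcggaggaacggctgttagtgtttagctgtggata
Cenpa: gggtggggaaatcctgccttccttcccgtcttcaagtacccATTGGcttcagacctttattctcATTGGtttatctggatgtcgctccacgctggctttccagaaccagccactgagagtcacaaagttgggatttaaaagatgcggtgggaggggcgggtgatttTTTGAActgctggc
Bub3: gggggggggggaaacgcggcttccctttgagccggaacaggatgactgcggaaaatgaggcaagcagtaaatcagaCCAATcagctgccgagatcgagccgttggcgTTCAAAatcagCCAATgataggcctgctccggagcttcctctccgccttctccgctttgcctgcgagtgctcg
All of these but Ccnb1 hold 1 CHR match in the stretch. Its first base lies at -29 in Ube2c, -18 in Cdc20, 5 in Ccnb2, 17 in Cenpa and -43 in Bub3. Ccnb2 holds 3 CCAAT matches in the stretch and each of the other 5 holds 2. The Ccnb1 stretch has CCAAT letters at -99 and -67 and no CHR letters.

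The libraries differed in a way that the groups do not explain. Counts in gene exons were 34787556 with sh1137 and 43372731 with sh830, and 40074419 and 42635790 in scrambled 1 and 2. Introns took 44.2% and 15.2% of exon plus intron counts with sh1137 and sh830, and 40.4% and 14.6% in scrambled 1 and 2, so that sh1137 pairs with scrambled 1 and sh830 with scrambled 2. The fits therefore carry a term for this pairing, which was introduced after these data had been seen and leaves 1 residual degree of freedom. Wdr82 itself had 25.1 and 40.7 counts after scaling each library to 1e+06 (CPM) with sh1137 and sh830, against 100 and 144 CPM in scrambled 1 and 2. It fell by 1.91 on the log2 scale (edgeR adjusted p = 0.0022).

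Mitosis and G2/M genes fell almost as a whole. Of the 49 genes, all of which passed the filter on low counts, 44 fell, 0 rose and 5 did not pass an adjusted p of 0.05 in the quasi-likelihood test of edgeR, adjusted over all genes and regions by the Benjamini-Hochberg method. None was higher at an unadjusted p under 0.05 either (0 in edgeR, and 0 calls in DESeq2 with the same terms). Over all 13884 genes tested, 7.79% fell and 6.06% rose in the same fit. The median log2 change of the 49 was -0.64, with a range of -1.22 to -0.24, beside a median of -0.01 over all genes. Summed over the 49, the exon level was 5012 and 5567 CPM with sh1137 and sh830, against 7557 and 8447 CPM in scrambled 1 and 2, and these sums do not overlap. In group means, the knockdown level was lower by 17.2 to 56.8%, with a median of 35.9% over the 49 genes.

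These calls rest on the pairing term. When the group was the only term, edgeR called 0 of the 49 (24 unadjusted) and DESeq2 likewise 0 (21 unadjusted), although the median change stayed at -0.64 in edgeR and all 49 values stayed negative. That loss is not particular to these genes in edgeR, where the same fit called 0 of all 13884 genes in either direction. Wdr82 and the members of the lists given below are among them. With the group term alone DESeq2 called 22 of all genes lower and 152 higher. With the pairing term it called 932 lower and 759 higher. Leaving out any 1 of the 4 libraries, which also removes the pairing term, left 0 calls among the 49 (1 to 11 unadjusted in edgeR) and 1 to 28 genes called lower among all tested, with medians between -0.83 and -0.47.

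The changes were graded rather than uniform. Ube2c alone was lower by more than 1 on the log2 scale, 12 genes by 0.75 to 1, 23 by 0.5 to 0.75 and 13 by less than 0.5. By function, the median log2 change was -0.96 for the anaphase-promoting complex partners and securin, -0.95 for the mitotic kinases and TPX2, -0.75 for CDK1, cyclins and their regulators and -0.71 for the central spindle and cytokinesis. It was -0.64 for the checkpoint and for the chromosomal passenger complex, -0.61 for spindle motors, -0.51 for chromosome structure and -0.45 for the centromere and kinetochore.

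**Figure D1:**
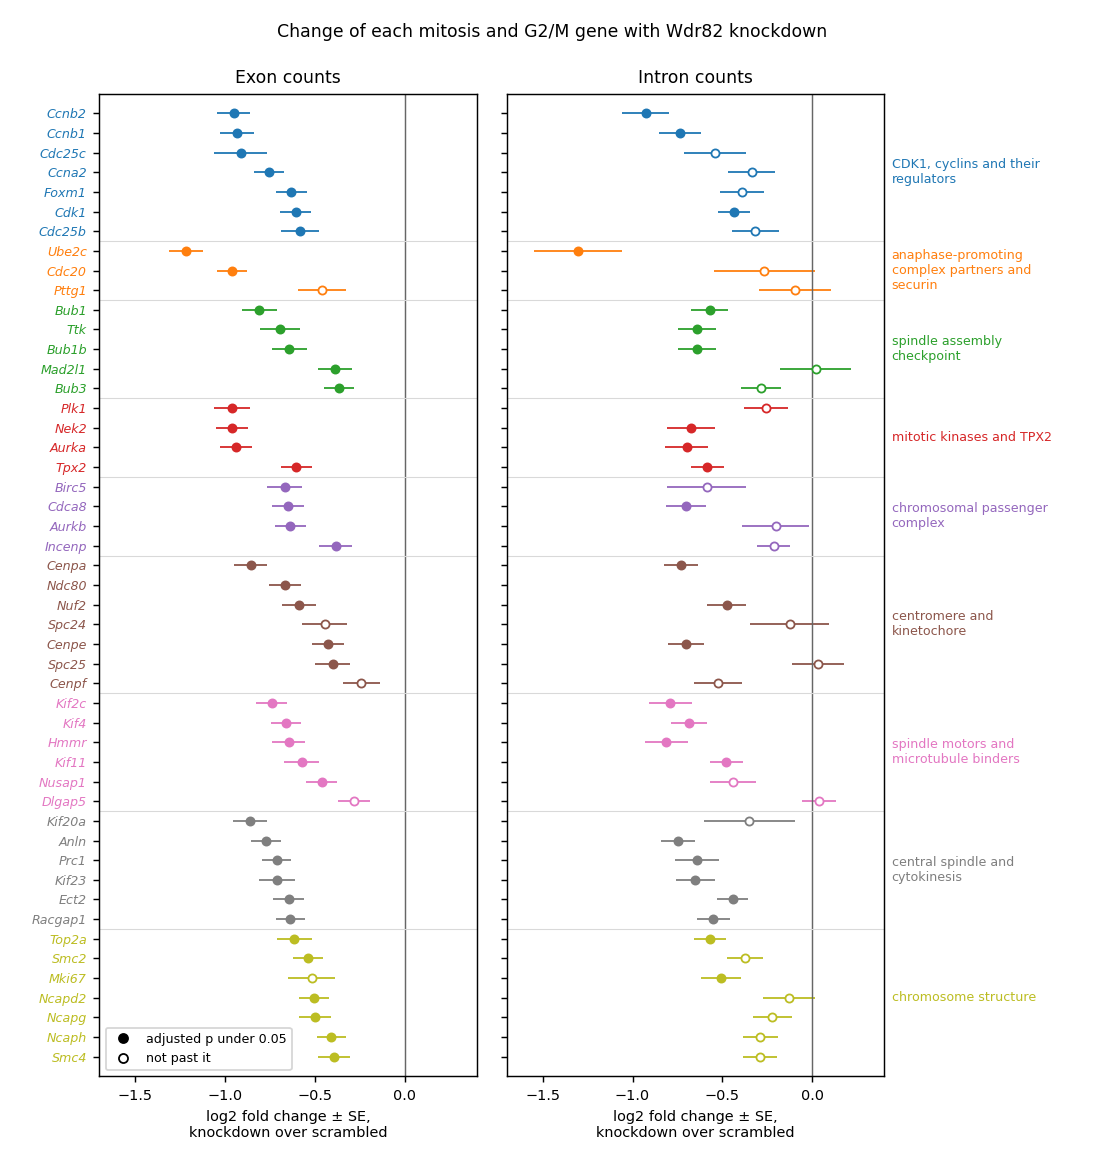
Log2 fold change of each of the 49 genes, knockdown over scrambled, with its standard error, from exon counts (left) and intron counts (right), grouped by function; filled points passed an adjusted p of 0.05 in edgeR with the pairing term. In exons 44 points are filled and all lie left of 0, with Ube2c farthest out at -1.22; in introns 25 are filled.

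The engine of mitotic entry fell in all 7 of its genes. Ccnb2, which encodes cyclin B2 (mm9 chromosome 9, 70255496 to 70269361, minus strand), had 41.3 and 64.8 CPM with sh1137 and sh830, against 75 and 133 CPM in scrambled 1 and 2. It fell by 0.95 ± 0.092 (log2 change ± SE, edgeR adjusted p = 0.0075). Ccnb1, which encodes cyclin B1, the main partner of CDK1, had 66.9 and 94.3 CPM with the hairpins, against 119 and 194 CPM with the scrambled sequence, and fell by 0.94 ± 0.095 (edgeR adjusted p = 0.0084). For both cyclins each knockdown library lay below each scrambled library. Cdc25b, a phosphatase that activates CDK1, had the smallest change of the group, with 72.3 and 60.6 CPM in knockdown and 97.8 and 101 CPM in scrambled libraries (-0.58 ± 0.10, edgeR adjusted p = 0.025).

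The other 4 genes of mitotic entry lay between these. Cdc25c, a further CDK1-activating phosphatase and the lowest of the 49 per length in scrambled cells, fell by 0.91. Ccna2, which encodes cyclin A2, fell by 0.75 and Foxm1, the transcription factor of late cell cycle genes, by 0.63. Cdk1 itself had 74.8 and 109 CPM with sh1137 and sh830, against 108 and 175 CPM in scrambled 1 and 2. It fell by 0.61 (edgeR adjusted p = 0.017), yet its groups overlap, since sh830 stood level with scrambled 1.

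Partners of the anaphase-promoting complex showed both the largest fall and 1 of the 5 genes that did not pass. Ube2c (mm9 chromosome 2, 164595429 to 164598402, plus strand), the ubiquitin-conjugating enzyme that starts chains on the complex's substrates, had 23.2 and 34.8 CPM with sh1137 and sh830, against 56 and 78.1 CPM in scrambled 1 and 2. It fell by 1.22 ± 0.093 (edgeR adjusted p = 0.0054), and its group means were 29 ± 8.18 and 67 ± 15.7 CPM in knockdown and scrambled libraries (SD, n = 2 each). Cdc20, the activator that brings substrates to the complex, had 39 and 50.6 CPM in knockdown and 75.7 and 98.9 CPM in scrambled libraries (-0.96 ± 0.084, edgeR adjusted p = 0.0064). Pttg1 encodes securin, the inhibitor of separase that the complex destroys at anaphase. It had 22.3 and 31.5 CPM with the hairpins and 26.5 and 50.2 CPM with the scrambled sequence, with overlapping groups (-0.46 ± 0.13, edgeR adjusted p = 0.072).

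All 5 checkpoint genes fell, with larger changes for the kinases Bub1 and Ttk than for Bub3 and Mad2l1. Bub1, a kinase at unattached kinetochores, had 69 and 71.7 CPM with sh1137 and sh830, against 111 and 137 CPM in scrambled 1 and 2 (-0.81 ± 0.099, edgeR adjusted p = 0.012). Ttk, the MPS1 kinase that starts checkpoint signalling, had 23.4 and 23.6 CPM in knockdown and 34.7 and 41.6 CPM in scrambled libraries (-0.69 ± 0.11, edgeR adjusted p = 0.020). Both knockdown values of each kinase lay close together and below both scrambled values. Bub1b, which encodes BUBR1, fell by 0.64. Bub3, the propeller protein that carries BUB1 and BUBR1 to kinetochores, had 69.3 and 109 CPM with the hairpins and 92 and 136 CPM with the scrambled sequence, so its groups overlap (-0.37 ± 0.083, edgeR adjusted p = 0.042). Mad2l1, which encodes the CDC20-binding protein MAD2, had a similar change of -0.39 and was the called gene nearest the threshold at an edgeR adjusted p of 0.04996. The DESeq2 fit with the pairing term did not call Bub3 (adjusted p = 0.060).

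Plk1, Nek2 and Aurka, the 3 kinases in the group of mitotic kinases and TPX2, changed by similar amounts. Plk1, the Polo-like kinase of entry, spindle assembly and exit, had 39.3 and 33.4 CPM with sh1137 and sh830, against 71.5 and 69.7 CPM in scrambled 1 and 2 (-0.96 ± 0.098, edgeR adjusted p = 0.0084). Nek2, a kinase that separates centrosomes, had 36.2 and 45.1 CPM in knockdown and 73 and 85 CPM in scrambled libraries (-0.96 ± 0.089, edgeR adjusted p = 0.0069). Aurka, the spindle-pole Aurora kinase, fell by 0.94, and the differences between these 3 kinases were smaller than the SE of each. Tpx2, the microtubule-binding activator of Aurora A, fell less, by 0.60 ± 0.085 (edgeR adjusted p = 0.016), with 121 and 135 CPM in knockdown and 177 and 213 CPM in scrambled libraries.

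The 4 genes of the chromosomal passenger complex, which corrects faulty attachments and later marks the cleavage site, also fell. Birc5, which encodes survivin, had 49.3 and 52.8 CPM with sh1137 and sh830, against 72.2 and 91.1 CPM in scrambled 1 and 2 (-0.67 ± 0.098, edgeR adjusted p = 0.017). Cdca8, which encodes borealin, had 45.7 and 45.8 CPM in knockdown and 69.1 and 74.6 CPM in scrambled libraries (-0.65 ± 0.089, edgeR adjusted p = 0.015). Aurkb, the kinase of the complex, fell by 0.64, so survivin, borealin and Aurora B moved by nearly equal amounts. Incenp, the scaffold that binds the other 3, changed least, with 208 and 159 CPM with the hairpins and 256 and 221 CPM with the scrambled sequence (-0.39 ± 0.092, edgeR adjusted p = 0.047). With DESeq2's size-factor method in place of TMM, Incenp was not called in edgeR (adjusted p = 0.062). A non-gene region that rose with knockdown covers the start of Incenp, and 24 bases of it overlap the exons of the gene.

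Centromere and kinetochore genes had the smallest median change, and 5 of 7 fell. Cenpa, the histone variant that marks centromeres, stood apart from the rest with 34.6 and 47 CPM with sh1137 and sh830, against 59.2 and 90.1 CPM in scrambled 1 and 2 (-0.86 ± 0.094, edgeR adjusted p = 0.0099). Of the NDC80 complex, which grips the microtubule, Ndc80 had 34.5 and 46.4 CPM in knockdown and 55.4 and 72.7 CPM in scrambled libraries (-0.67 ± 0.088, edgeR adjusted p = 0.014). Its other 3 subunits had log2 changes of -0.59 for Nuf2 and -0.40 for Spc25, both of which fell, and -0.45 for Spc24, which did not pass (edgeR adjusted p = 0.066). Cenpe, a kinetochore motor, had 162 and 120 CPM with the hairpins and 230 and 153 CPM with the scrambled sequence, and fell by 0.43 ± 0.088 with overlapping groups (edgeR adjusted p = 0.034). Cenpf, a large coiled-coil protein of the outer kinetochore, had the smallest change of all 49. It had 147 and 103 CPM in knockdown and 191 and 111 CPM in scrambled libraries (-0.24 ± 0.10, edgeR adjusted p = 0.16).

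Of the 6 spindle motors and microtubule binders, 5 fell. Kif2c, which encodes the microtubule-depolymerizing kinesin MCAK, had 41.1 and 47.1 CPM with sh1137 and sh830, against 66.9 and 80.9 CPM in scrambled 1 and 2 (-0.74 ± 0.088, edgeR adjusted p = 0.011). Kif4, a chromokinesin on the X chromosome, had 62.7 and 79.7 CPM in knockdown and 96.3 and 130 CPM in scrambled libraries (-0.66 ± 0.084, edgeR adjusted p = 0.013). Hmmr, a spindle-pole microtubule binder, had 69.2 and 76.5 CPM with the hairpins and 102 and 128 CPM with the scrambled sequence (-0.65 ± 0.091, edgeR adjusted p = 0.016). Kif11, the kinesin that pushes the poles apart, fell by 0.57 and Nusap1, which bundles spindle microtubules, by 0.46. Dlgap5, a stabilizer of kinetochore fibres, did not pass. It had 69.1 and 74.2 CPM in knockdown and 79.5 and 95.1 CPM in scrambled libraries, which do not overlap (-0.28 ± 0.089, edgeR adjusted p = 0.087).

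All 6 genes of the central spindle and cytokinesis fell, and none of their groups overlapped. Kif20a, the kinesin that brings passenger proteins to the midzone, had 51.9 and 62.6 CPM with sh1137 and sh830, against 87.8 and 122 CPM in scrambled 1 and 2 (-0.86 ± 0.094, edgeR adjusted p = 0.0099). Anln, the scaffold anillin of the contractile ring, had 131 and 153 CPM in knockdown and 222 and 262 CPM in scrambled libraries (-0.77 ± 0.084, edgeR adjusted p = 0.0098). Prc1, which cross-links midzone microtubules, and Kif23, the kinesin of centralspindlin, both fell by 0.71. Ect2, the exchange factor that activates RhoA at the equator, fell by 0.65. Racgap1, the partner of KIF23 in centralspindlin, changed least, with 105 and 140 CPM with the hairpins and 164 and 215 CPM with the scrambled sequence (-0.64 ± 0.083, edgeR adjusted p = 0.013).

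Among genes of chromosome structure 6 of 7 fell. Top2a, the topoisomerase that untangles sister chromatids, had 483 and 639 CPM with sh1137 and sh830, against 734 and 986 CPM in scrambled 1 and 2 (-0.62 ± 0.098, edgeR adjusted p = 0.020). The condensin subunits that fold mitotic chromosomes changed less. Smc2 had 175 and 212 CPM in knockdown and 252 and 309 CPM in scrambled libraries (-0.54 ± 0.085, edgeR adjusted p = 0.020). Smc4, its partner, had 196 and 222 CPM with the hairpins and 269 and 280 CPM with the scrambled sequence (-0.39 ± 0.089, edgeR adjusted p = 0.041). Of the condensin I subunits, Ncapd2 fell by 0.51, Ncapg by 0.50 and Ncaph by 0.41, with no overlap between groups. Mki67, which encodes the proliferation marker Ki-67 of the chromosome periphery, had 1067 and 1102 CPM in knockdown and 1712 and 1411 CPM in scrambled libraries. Its groups did not overlap, and it missed the threshold (-0.52 ± 0.13, edgeR adjusted p = 0.051).

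**Figure D2:**
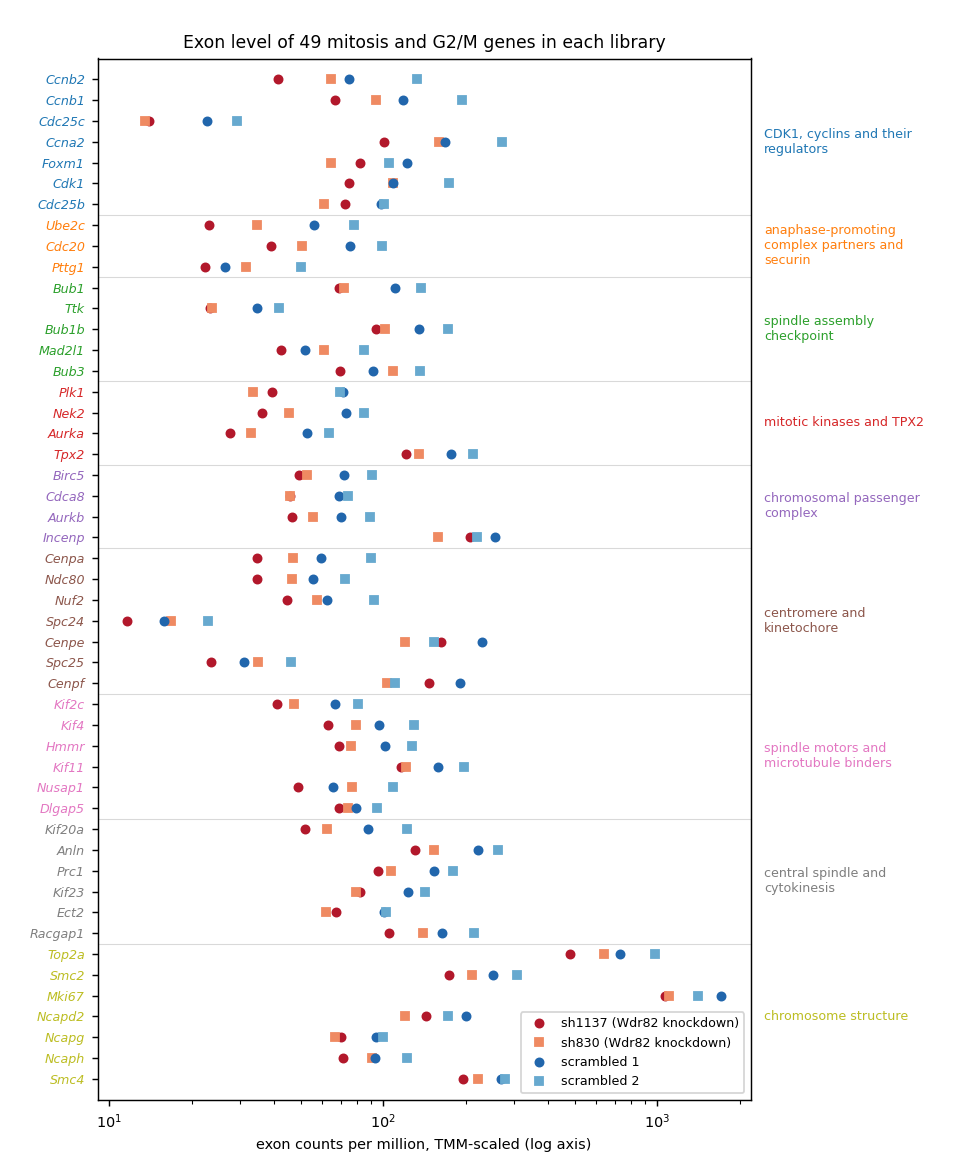
Exon level of each of the 49 genes in each library, in TMM-scaled CPM on a log axis, grouped by function; red and orange are the knockdown libraries, dark and light blue the scrambled ones, and circles and squares mark the library pairs. In 40 of the 49 rows both knockdown points lie left of both scrambled points.

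Per kilobase of exon, the mean level ranged from 12.2 RPKM for Cdc25c to 155 RPKM for Mki67 in scrambled libraries. Over the 49 genes the median was 18.4 RPKM in knockdown and 29.4 RPKM in scrambled libraries. Top2a and Mki67 stood above the rest, at 101 and 108 RPKM in knockdown and 155 and 155 RPKM in scrambled libraries, and did not differ from each other beyond their spread. Ube2c stood at 31.1 RPKM in knockdown and 72 RPKM in scrambled libraries, and Incenp at 56.9 and 73.8 RPKM. In scrambled libraries these 2 genes did not differ beyond their spread. The least covered of these genes in any library had 436 exon counts and the most covered 70013.

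Both hairpins gave the same direction throughout. All 49 genes were lower with sh1137 than in scrambled 1, with a median log2 ratio of -0.57, and lower with sh830 than in scrambled 2, with a median of -0.70. Over all genes tested, 39.5% were lower in both pairs. Both knockdown libraries lay below both scrambled libraries for 40 of the 49, against 15.7% of all genes, and the 9 that overlapped were Cdk1, Pttg1, Bub3, Mad2l1, Cenpe, Cenpf, Spc24, Spc25 and Nusap1. The log2 ratio was larger in size with sh830 for 39 genes and with sh1137 for 10. The median gap between the pairs was 0.15 on the log2 scale, beside 0.21 over 13737 genes with a ratio in both pairs. Those genes were not matched to the 49 for level, and low counts widen the gap. Pttg1 had ratios of -0.24 with sh1137 and -0.67 with sh830. Mki67, in contrast, had -0.68 with sh1137 and -0.36 with sh830. With 1 library per hairpin, no difference between hairpins was tested.

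**Figure D3:**
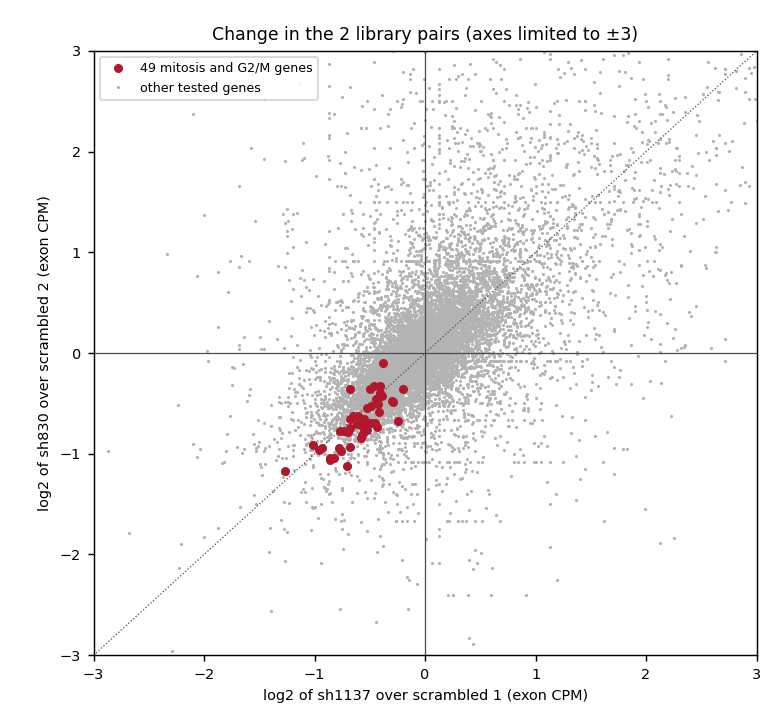
Log2 ratio of exon CPM for sh1137 over scrambled 1 (horizontal) and sh830 over scrambled 2 (vertical), 1 point per gene tested; the 49 mitosis and G2/M genes are red and the other genes grey, and the dotted line marks equal ratios. All 49 red points lie in the lower left quadrant, with Ube2c at -1.27 and -1.17.

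The scrambled libraries also differed from each other. Scrambled 1 lay below scrambled 2 for 42 of the 49, with a median log2 ratio of -0.33, and sh1137 lay below sh830 for 38. Over all 13884 genes tested, scrambled 1 lay below scrambled 2 for 6906, with a median log2 ratio of 0.004. For sh1137 and sh830 the count over all genes was not made. In the 49 genes this difference between scrambled libraries runs with the intron share of the libraries. In each gene with overlapping groups it was larger in size than the knockdown change, as in Pttg1 (-0.92 beside -0.46) and Cenpf (0.79 beside -0.24). Among genes without overlap it ranged from near the knockdown change (Ccnb2, -0.83 beside -0.95) to far below it (Plk1, 0.04 beside -0.96). The part of this difference between scrambled libraries in the calls was not tested beyond the fits without the pairing term.

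Intron counts, which largely reflect unspliced transcripts, were also lower. Of 48 genes tested, 25 fell and 0 rose (0 also unadjusted, and 0 in DESeq2 with the same terms), where 3.93% of 12405 genes fell and 5.97% rose. The median log2 change was -0.49, beside -0.01 over all genes, and 45 of the 48 values were negative. There were 24 genes that fell in both exons and introns and 19 that passed in exons alone, and Mki67 passed in introns alone (-0.51, edgeR adjusted p = 0.041). With the group term alone 0 of the 48 were called in introns (14 at an unadjusted p under 0.05 in edgeR), and 0 of all 12405 genes. Leaving out 1 library gave 0 calls, or 1 call without sh830 (1 to 7 unadjusted in edgeR), where 0 to 42 of all genes tested were called lower. With library sizes taken from exons the median was -0.38.

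The introns with the smallest p were spread over several functions. Those of Anln had 86.7 and 71.1 CPM of intron counts with sh1137 and sh830, against 153 and 113 CPM in scrambled 1 and 2, and fell by 0.75 ± 0.095 (edgeR adjusted p = 0.0090). Cenpa introns had 58.2 and 58.4 CPM in knockdown and 92.8 and 101 CPM in scrambled libraries (-0.73 ± 0.095, edgeR adjusted p = 0.0096). Ccnb2 introns had 13.5 and 20.2 CPM in knockdown and 26.7 and 36.7 CPM in scrambled libraries (-0.93 ± 0.13, edgeR adjusted p = 0.012). In none of these 3 genes did the intron change differ from the exon change at an adjusted p of 0.05. Cenpe introns fell by 0.70 ± 0.10 (edgeR adjusted p = 0.012), with 71.2 and 80.8 CPM in knockdown and 125 and 121 CPM in scrambled libraries that, unlike its exons, did not overlap. Hmmr introns had 31.5 and 28.7 CPM with the hairpins and 51 and 55.5 CPM with the scrambled sequence (-0.81 ± 0.12, edgeR adjusted p = 0.013). Kif4 introns differed widely between library pairs, at 89.2 and 43.5 CPM with sh1137 and sh830 and 135 and 75.5 CPM in scrambled 1 and 2, and fell by 0.68 (edgeR adjusted p = 0.013). Ube2c introns had the largest change of the 48, at -1.30 ± 0.24 (edgeR adjusted p = 0.026).

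Intron signal per kilobase was a small share of exon signal, with medians of 7.38% and 2.47% with sh1137 and sh830 and 6.12% and 1.96% in scrambled 1 and 2. Ndc80 had 0 intron counts in all 4 libraries, and its whole span lies within an annotated intron of Smchd1 on the same strand. It was therefore the gene without an intron test. Smc4 carries Mir15b and Mir16-2 in an intron.

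The change in introns differed from that in exons for 3 of 48 genes, each with a smaller decrease in introns, where 2.12% of 11772 genes were higher in introns than in exons and 2.23% lower. In the other direction there were 0 (2 unadjusted in edgeR). Over the 48 genes the median of this difference was 0.09 on the log2 scale. Plk1 had 26.2 and 25.5 CPM of intron counts in knockdown and 30.5 and 31.4 CPM in scrambled libraries, an intron change of -0.26 beside the exon change of -0.96 (difference 0.67 ± 0.15, edgeR adjusted p = 0.00049). Its annotated span shares 16004 bases, or 43.4%, with Dctn5 on the same strand, and how the authors divided reads between them is not given in the sources used here. Cdc20 introns had 2.82 and 5.93 CPM in knockdown and 3.21 and 7.58 CPM in scrambled libraries (difference 0.67 ± 0.22, edgeR adjusted p = 0.048). Ncapd2 had 1725 and 12160 intron counts with sh1137 and sh830, and 2265 and 9887 in scrambled 1 and 2, so its intron counts follow the library pair and not the hairpin (difference 0.36 ± 0.10, edgeR adjusted p = 0.021). An intron of Ncapd2 holds Scarna10, a small RNA gene of its own, which had 97 and 2339 exon counts in knockdown and 140 and 2273 in scrambled libraries. The part of Scarna10 in the Ncapd2 intron counts was not tested. Without the term for library pair by interval, 0 of the 48 were called in edgeR (1 unadjusted), and 0 of all 11772 genes.

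Exons of 8 of the 49 genes overlap exons of another gene, and the sources used here do not give whether counting used the strand. The overlaps are 1271 and 187 bases of Kif20a with Cdc23 and Brd8, 378 bases of Ccna2 with Exosc9, 208 of Nusap1 with Oip5, 156 of Plk1 with Dctn5, 105 of Ncapg with Lcorl, 92 of Cdc25b with Spef1, 90 of Foxm1 with Tex52 and 16 of Cdc20 with Elovl1. The values of these genes, above all Kif20a, may contain reads of their neighbours. The 49 genes lie on 17 chromosomes, 22 on the plus and 27 on the minus strand.

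The promoters of these genes share letters that the choice by name did not use. The RefSeq table held windows of 300 bases for 39 of the 49, from 250 before to 50 after the start. CHR letters occurred in 30 of 39 genes, or 76.9%, against 16.8% of 10862 genes tested over exons and 21.7% of all 27025 genes in the table. CCAAT letters also occurred in 30 of 39, or 76.9%, against 42.9% of tested genes, and both together in 27, or 69.2%, against 8.32%. At least 2 CCAAT matches were found in 20 genes, or 51.3%, against 16.4% of tested genes.

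The CHR letters lay mostly near the start. They began within 50 bases of it in 27 genes, or 69.2%, against 4.47% of tested genes, and 28 of the 40 sites lay there. The 68 CCAAT sites had a median position of -67.5. A site in overlapping windows of one gene was counted once. Plk1 had CHR letters at 31, Bub1 at 15 and Aurka at 33, each just past the start. The change of a gene did not sort cleanly by these letters: the median log2 exon change was -0.65 in 30 genes with CHR letters and -0.46 in the 9 without, and -0.65 with and -0.59 without CCAAT letters. Nek2 and Ccnb1, with 2 of the larger falls, were among the 9 without CHR letters, and Cenpf, with the smallest change, had them. A match is a stretch of letters, and binding was not measured. For the CHR only TTTGAA and TTCGAA were searched, so other forms of it would be missed.

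**Figure D4:**
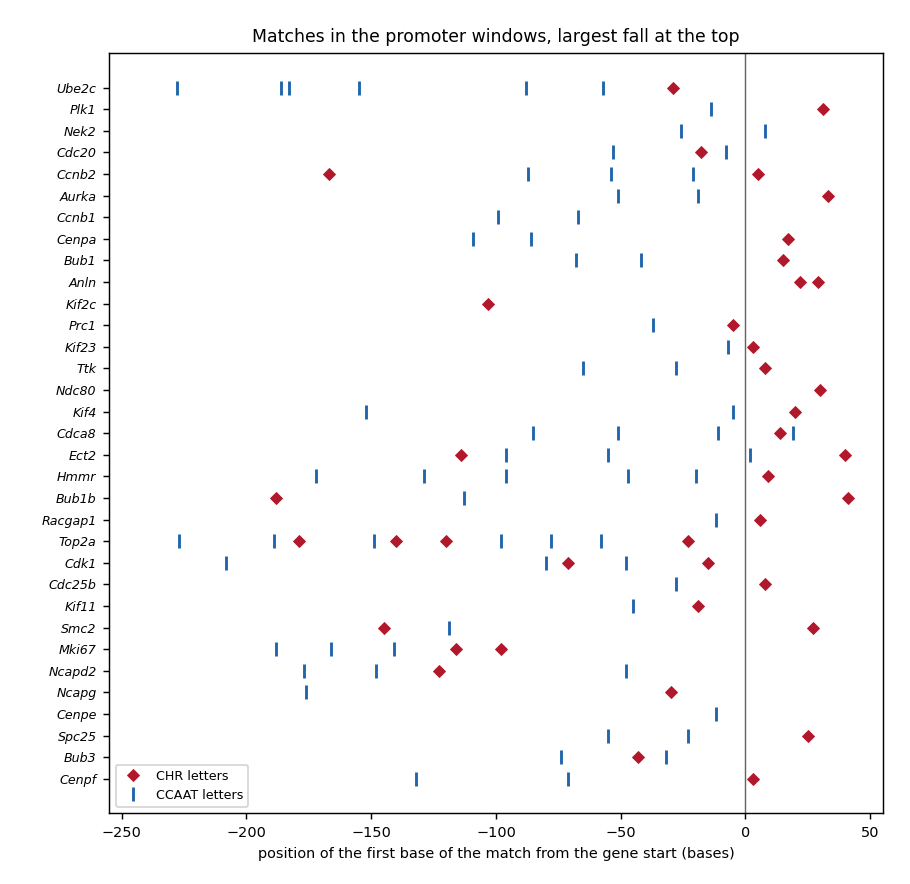
Positions of CHR letters (red diamonds) and CCAAT letters (blue bars) in the first RefSeq promoter window of each gene, in bases from the gene start, for the genes with at least 1 match, ordered by exon change with the largest fall at the top; 6 of 39 genes have neither. Most red diamonds lie within 50 bases of the start, and blue bars lie mostly before it.

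Other genes that work in mitosis also fell, in varying shares. Of 44 other G2/M and spindle genes tested, 35 fell and 0 rose, with a median of -0.59. Tubb4b, a beta-tubulin, had 175 and 268 CPM with sh1137 and sh830, against 358 and 492 CPM in scrambled 1 and 2 (-0.95, edgeR adjusted p = 0.0080). The kinases Melk, Pbk, Wee1 and Plk4 and the spindle proteins Aspm, Spag5 and Kif14 were also among the 35. Of 29 other kinetochore and centromere genes 9 fell and 0 rose, with a median of -0.33, among them Kntc1, a subunit of the complex that brings dynein to kinetochores (-0.73, edgeR adjusted p = 0.013). Of 13 cohesin and separase genes 4 fell, with a median of -0.27: Sgo1 (-0.78, edgeR adjusted p = 0.017), the protector of centromeric cohesin, Sgo2a, Espl1, which encodes separase, and Rad21. These shares are to be read beside the 7.79% of all genes that fell. In these 3 lists no gene was higher at an unadjusted p under 0.05 in edgeR, and none was called higher by DESeq2.

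Of 17 further genes of the anaphase-promoting complex and its cofactors, 3 fell and 1 rose, with a median of -0.17. Over all genes 7.79% fell and 6.06% rose. Ube2s, which extends the ubiquitin chains that UBE2C starts, had 65.8 and 114 CPM in knockdown and 120 and 188 CPM in scrambled libraries (-0.80, edgeR adjusted p = 0.010). Anapc15, a small subunit that frees the complex from the checkpoint, had 60.5 and 51.5 CPM with the hairpins and 32.5 and 39.2 CPM with the scrambled sequence, and rose by 0.65 (edgeR adjusted p = 0.038). Anapc5 and Fzr1, which encodes the activator CDH1, were the other two that fell.

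Apart from Foxm1, which fell by 0.63, the regulators that bind these promoters mostly did not pass the test. Of 13 DREAM and MuvB genes 3 fell and 0 rose, with a median of -0.15, where 7.79% of all genes fell. Mybl2, which encodes B-MYB, had 35.7 and 35.2 CPM in knockdown and 54.6 and 56.9 CPM in scrambled libraries (-0.65, edgeR adjusted p = 0.016), and Lin54, which contacts the CHR, and Tfdp1 also fell. At an unadjusted p under 0.05, 5 of the 13 were lower and 3 higher in edgeR, and DESeq2 called 3 lower and 0 higher. Of 36 DNA replication and G1/S genes 17 fell and 0 rose, with a median of -0.37 and with 0 higher unadjusted in edgeR and 0 in DESeq2. The other 19 did not pass. Rrm2, the ribonucleotide reductase subunit of S phase, had 68.3 and 98.6 CPM in knockdown and 128 and 163 CPM in scrambled libraries (-0.81, edgeR adjusted p = 0.010). No test of the difference between the mitotic and the G1/S genes was made.

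Of 7 CDK inhibitors 1 fell and 1 rose, where 7.79% of all genes fell and 6.06% rose. Cdkn1b, which encodes p27, the inhibitor of quiescent cells, had 37 and 43.8 CPM with sh1137 and sh830, against 28.7 and 29.7 CPM in scrambled 1 and 2, and rose by 0.46 (edgeR adjusted p = 0.040), a call that DESeq2 with the same terms did not make. Cdkn2c, which encodes p18, had 40.2 and 56.8 CPM in knockdown and 61.2 and 75.9 CPM in scrambled libraries, and fell by 0.51 (edgeR adjusted p = 0.027).

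Markers of the labelled cell type were high in every library, and the summed level of 10 macrophage markers was 8851 and 15482 CPM with sh1137 and sh830, against 10478 and 12479 CPM in scrambled 1 and 2. Fcgr1, an Fc receptor, fell by 1.51 (edgeR adjusted p = 0.0031), and Cd68 and Spi1 also fell, while the other 7, with Csf1r and Adgre1, did not pass. Markers of cells that could divide beside the macrophages summed to less than the macrophage markers in every library. The sums of the stem and progenitor and of the erythroid and megakaryocyte lists lay above the level of Ube2c (23.2 to 78.1 CPM) in every library. The part of any of these cells in the mitotic values was not tested. Counts of called markers are to be read beside the 7.79% of all genes that fell and the 6.06% that rose. The 10 stem and progenitor markers summed to 120 and 111 CPM in knockdown and 193 and 119 CPM in scrambled libraries. Of these, 9 were tested and 1 passed, Ly6a (-1.28, edgeR adjusted p = 0.0076). Log2 changes of the 9 ranged from -1.28 to 0.92, with a median of -0.15. By library pair, 3 of the 9 were lower with sh1137 than in scrambled 1, and 7 with sh830 than in scrambled 2. Of 9 neutrophil markers, which summed to 223 and 129 CPM in knockdown and 81.8 and 57.9 CPM in scrambled libraries, 8 were tested and 1 passed, Mmp8, a collagenase (2.16, edgeR adjusted p = 0.0020). It accounts for 181 and 107 CPM of the knockdown sums and 37.3 and 26 CPM of the scrambled sums. Of the 8 neutrophil markers tested, 7 had a negative log2 change, and the median was -0.31.

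Of 10 stromal markers 7 were tested, all with positive log2 changes, from 0.75 to 2.58 with a median of 1.32. Of these 4 did not pass and 3 rose: Pdgfrb (2.13, edgeR adjusted p = 0.0039), Col1a1 (2.58, edgeR adjusted p = 0.0048) and Acta2 (1.32, edgeR adjusted p = 0.023). At an unadjusted p under 0.05, 5 were higher in edgeR, and DESeq2 called 3 higher. The 10 stromal markers summed to 50.5 and 161 CPM with sh1137 and sh830, against 11.8 and 49.1 CPM in scrambled 1 and 2. Col1a1 had 0.774 and 53.3 CPM in knockdown and 0.0978 and 9.26 CPM in scrambled libraries, so it followed the library pair as well. Lymphocyte markers summed to 2.75 and 3.58 CPM in knockdown and 1.34 and 1.63 CPM in scrambled libraries, with Nkg7 at 0 in all 4, and of 4 tested 0 were called by edgeR or DESeq2 (1 higher unadjusted in edgeR). Of 8 erythroid and megakaryocyte markers, 2 were tested and 0 called by edgeR or DESeq2 (0 unadjusted). The sums of 201 and 135 CPM in knockdown and 187 and 171 CPM in scrambled libraries were almost all Tfrc, and Pf4 was at 0 in all 4.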

How the data were processed

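For 4 untreated total-RNA libraries the authors deposited unnormalized whole-number read counts, summed for each gene across its exons and, in separate files, across its introns. Per the submitters' processing notes, the tools named are TopHat 1.3.1, Cufflinks 2.1.1, Cuffdiff 2.1.1 and SICER with the mm9 build, and which tool counted the reads and whether it used strand is not given in the sources used here. The deposited annotation gives mm9 intervals of genes and of non-gene regions.

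One model of edgeR 4.0.16, run in R 4.3.3, covered the exon counts of all genes and the regions, with gene-based TMM factors, filterByExpr, a group term and a library-pair term (scrambled 1 with sh1137, scrambled 2 with sh830), by quasi-likelihood F-tests with Benjamini-Hochberg adjustment at a threshold of 0.05. Intron counts were modelled separately, with TMM factors from introns. The difference between intron and exon change was tested as a group by interval interaction. An SE is the log2 change divided by the square root of F. CPM and, per kilobase of exon, RPKM use the TMM-scaled exon totals. The labels' replicate numbers cover the scrambled libraries alone, so no pairing by number was used. Symbols were matched by identifier, 21615 of 21761 genes.

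The 49 genes, the lists and the pairing term were chosen with earlier results of these data known. Per-library values are given, in each functional group, for the 2 genes with the largest and the 1 with the smallest change, for up to 6 genes with the smallest p in introns and in intron against exon change, and for the most significant gene of each list and direction. Other genes are given by their change, and Cdk1 and the genes that missed the threshold were added after their values were seen. The symbols Kifc1, Ly6g, Hba-a1, Hbb-bt and Trbc2 of the lists found no match. Scripts were tested on simulated counts. DESeq2 1.42.0, RLE factors, no filter, the group term alone and leaving out each library were the alternatives. Reads without molecular identifiers are not independent molecules. No genome sequence of the build was used, so near-identical copies were not checked.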

Additional observations from a re-analysis of the deposited data

Results flagged for a closer look

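The non-gene regions of the deposited annotation were counted apart from the 49 genes, and 8 of them lie within 20 kb of one. In 5 the knockdown libraries were above both scrambled libraries and the region rose (edgeR adjusted over all genes and regions). The authors chose the regions on a comparison of hairpin with vector libraries, and 54.6% of all 1070 regions tested rose, so their direction is not independent evidence. The region named for the start of Incenp covers the start of that gene (mm9 chromosome 19, 9974000 to 10022999). It had 3673 and 1771 counts with sh1137 and sh830, against 455 and 462 in scrambled 1 and 2, a log2 change of 2.50 (edgeR adjusted p = 0.013), while Incenp itself fell by 0.39. The region named for the start of Bcl2l1 lies 9201 bases from the start of Tpx2, with 1099 and 482 counts in knockdown and 38 and 45 in scrambled libraries (4.16, edgeR adjusted p = 0.0081). Near Birc5, the region named for the end of Afmid had a log2 change of 1.56 (edgeR adjusted p = 0.040) and that for the start of Tha1 one of 3.16 (edgeR adjusted p = 0.033). The region at the start of Birc5 itself, with 135 and 52 counts in knockdown and 52 and 47 in scrambled libraries, did not pass (0.81, edgeR adjusted p = 0.27). The region named for the start of Lgals3 lies 19955 bases past the end of Dlgap5, with 15375 and 2838 counts in knockdown and 542 and 496 in scrambled libraries (3.71, edgeR adjusted p = 0.022). The neighbouring genes Tpx2 and Birc5 fell and Dlgap5 did not pass. The part of these regions in the counts of their neighbours was not tested. No group had enough libraries for a test of single outlying samples.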

How the results depend on the processing

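The exon calls need the pairing term: 0 of the 49 were called lower with the group term alone in edgeR or DESeq2, and 0 when any 1 library was left out. With the pairing term the count was 42 in DESeq2 and 42 with RLE size factors (41 shared with the 44 in each) and 44 without the filter (43 shared). In introns the count of 25 was 0 with the group term alone in edgeR and in DESeq2, 0 to 1 when 1 library was left out, and 21 to 30 otherwise. The median intron change was -0.38 with exon library sizes. The 3 genes with unequal intron and exon change became 0 without the term for library pair by interval. Medians of the exon change ran between -0.83 and -0.47. With 1 scrambled library left out, the change of Pttg1 ranged from -0.91 to 0.052 and that of Cenpf from -0.58 to 0.16, which turned its direction in 1 case each (Pttg1 without scrambled 2, Cenpf without scrambled 1). Fits without a library use the group term alone and assume that the lone sample varies like the others. Of the 30 genes that the naming rule took, 27 lost their call with the group term alone and in each such fit, 1 in DESeq2 with the pairing term (Bub3) and 1 with RLE factors (Incenp). No paired analysis was possible because the knockdown libraries carry a hairpin name and no replicate number to pair by, and the pairing term of the fits comes from the intron share instead. With 2 libraries a group and 1 residual degree of freedom, the number of libraries limits precision.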
